A study of Mus musculus with 28 samples.

Results

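The brain response to a nicotine-induced seizure was examined in mice that lack the beta4 subunit of the nicotinic acetylcholine receptor. These are 9 of the 28 mice of the series, chosen by their genotype and treatment labels: 5 beta4 null mice that received no treatment and 4 beta4 null mice taken 1 hour after a seizure that followed an intraperitoneal injection of nicotine. Every mouse was of the C57BL/6J strain, and total RNA of the whole brain of each mouse was hybridised to 1 Affymetrix U74Av2 array. The untreated beta4 null mice were 6, 9 and 7 weeks old (males, mice 1 to 3) and 8 and 8 weeks old (females, mice 4 and 5). The seized ones were 8 and 8 weeks old (males, mice 1 and 2), 8 weeks old (female, mouse 3) and 7 weeks old (male, mouse 4). Mouse numbers follow the order of the samples and pair no mice. For comparison there were 2 other genotypes: wild-type mice (6 untreated, aged 6 to 9 weeks, and 3 seized, aged 7 to 8 weeks) and mice heterozygous for the alpha7 subunit allele L250T, here alpha7 +/T (5 untreated, of which 4 were 6 weeks old and 1 was 8 weeks old, and 5 seized, aged 8 weeks). The nicotine dose differed between genotypes so that seizures were of similar score, and untreated mice had no injection, so nicotine, injection and seizure cannot be told apart here.

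Nicotinic receptors are ion channels, built from alpha and beta subunits, that acetylcholine and nicotine open. The beta4 subunit is expressed in few brain regions, among them the medial habenula and interpeduncular nucleus, and mice without it are known to need more nicotine to seize. A seizure depolarises many neurons at once. Calcium entry then activates kinases that phosphorylate CREB and the serum response factor complex, and within minutes these switch on immediate early genes without new protein synthesis. The first products are transcription factors such as Fos, Egr1 and Nr4a1, followed by phosphatases such as the Dusp proteins that turn the MAP kinases off again. Stress hormones released during a seizure act on a further set of genes through the glucocorticoid receptor.

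The arrays fell into a low-ratio and a high-ratio class by the log2 ratio of the signals from the 3 prime and 5 prime ends of the Gapdh control, with 0.5 as the limit between them. Among the beta4 null mice, untreated mice 1 and 2 and seized mice 1 and 2 were low-ratio arrays (-0.39 to -0.22), and untreated mice 3 to 5 and seized mice 3 and 4 were high-ratio arrays (1.13 to 2.04). All 4 low-ratio arrays were from males. Rank correlations between mice of a group ran from 0.958 to 0.972 within a class and from 0.928 to 0.945 between classes. Each difference below is therefore estimated with array class as a term in the model. The arrays' number limits the precision, and no background value was used, so dim signals have no detection limit. No probe set was paired with Chrnb4, the deleted gene, so the genotype was not checked by its own transcript.

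In the beta4 null brain 4 genes rose after the seizure, and none fell. They were Nr4a1, an orphan nuclear receptor and early transcription factor; Klf4, a Krüppel-like zinc finger factor; Dusp6, the phosphatase that inactivates the kinase ERK; and Ddit4, an inhibitor of mTOR signalling that glucocorticoids and energy stress induce. They are 4 of 7350 probe sets tested, or 0.0544%, and 0% fell (limma, Benjamini-Hochberg adjusted p under 0.05). At an unadjusted p under 0.05 (limma) there were 212 probe sets (2.88%), a smaller share than the 0.05 expected where nothing differs. The 250 bases upstream of the RefSeq start of each of these genes are shown with those of Fos, the best known early gene, so that motifs of activity-driven transcription factors can be seen beside the responses (RefSeq, GRCm38.p6; each 5′ to 3′ on the gene's strand). Capitals mark matches to TGACG, the core of the cAMP response element bound by CREB, or its complement CGTCA, and to GCGNGGGCG, the site of the Egr factors, or its complement CGCCCNCGC; no match to one overlapped a match to the other.
Nr4a1, chr15:101266596-101266845, plus strand: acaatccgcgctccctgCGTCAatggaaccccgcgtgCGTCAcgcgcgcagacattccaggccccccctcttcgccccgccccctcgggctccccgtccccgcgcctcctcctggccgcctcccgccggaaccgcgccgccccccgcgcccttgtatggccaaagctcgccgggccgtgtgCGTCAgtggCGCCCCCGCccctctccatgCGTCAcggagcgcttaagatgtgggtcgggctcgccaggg
Klf4, chr4:55532476-55532725, minus strand: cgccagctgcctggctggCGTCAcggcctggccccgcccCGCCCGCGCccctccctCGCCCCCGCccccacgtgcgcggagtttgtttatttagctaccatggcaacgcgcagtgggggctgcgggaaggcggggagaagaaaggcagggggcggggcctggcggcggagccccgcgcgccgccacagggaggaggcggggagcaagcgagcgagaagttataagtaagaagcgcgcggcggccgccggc
Dusp6, chr10:99262981-99263230, plus strand: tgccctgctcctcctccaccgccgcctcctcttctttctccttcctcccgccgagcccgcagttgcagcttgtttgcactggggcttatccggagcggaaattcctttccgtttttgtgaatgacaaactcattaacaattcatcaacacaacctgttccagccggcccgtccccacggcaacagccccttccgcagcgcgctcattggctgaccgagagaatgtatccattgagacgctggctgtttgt
Ddit4, chr10:59951771-59952020, minus strand: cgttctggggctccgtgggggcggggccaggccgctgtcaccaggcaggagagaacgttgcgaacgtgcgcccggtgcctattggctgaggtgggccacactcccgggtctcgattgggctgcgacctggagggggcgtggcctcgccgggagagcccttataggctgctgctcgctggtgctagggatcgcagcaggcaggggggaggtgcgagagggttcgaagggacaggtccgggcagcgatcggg
Fos, chr12:85473640-85473889, plus strand: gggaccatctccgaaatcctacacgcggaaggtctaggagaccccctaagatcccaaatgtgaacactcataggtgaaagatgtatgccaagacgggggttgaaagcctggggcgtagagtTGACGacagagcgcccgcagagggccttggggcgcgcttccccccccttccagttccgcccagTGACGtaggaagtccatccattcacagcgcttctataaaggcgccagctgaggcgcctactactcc

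The Nr4a1 window held 4 matches to the TGACG core, beginning 233, 213, 69 and 40 bases before the start. Fos held 2, at 129 and 66 bases, and Klf4 held 1, at 232 bases. Klf4 also held 2 Egr sites, at 211 and 194 bases, and Nr4a1 held 1, at 60 bases. Dusp6 and Ddit4 had no match to either motif. No window of the 5 held the full element TGACGTCA or a CArG box, the site of serum response factor. Bases further upstream were not searched, so these genes are not shown to lack such sites. Of 32851 RefSeq promoter windows of the same length, searched on both strands, 17.765% held the TGACG core, 4.697% the Egr site, 1.546% the full element and 1.467% a CArG box. A match describes these letters and is not a site shown to be bound.

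Nr4a1 had the clearest response. Its signal in the 5 untreated mice was 284, 334, 234, 276 and 147 (MAS5 signal, mice 1 to 5). In the 4 seized mice it was 887, 504, 638.5 and 748. Every seized mouse stood above every untreated one, within each array class and across them. The log2 difference was 1.45 ± 0.25 (SE, 2.74-fold, limma adjusted p = 0.0199), with a 95% interval of 0.94 to 1.97.

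Klf4 was dimmer, and its signal exceeded the array's own median in 21 of 28 arrays. The untreated mice stood at 51.4, 37.7, 85.95, 59.25 and 67.3, and the seized mice at 94.45, 98.35, 152.3 and 180.3. Low-ratio arrays gave lower signals in both groups, and the groups did not overlap. It rose by 1.21 ± 0.22 on the log2 scale (SE; 2.31-fold, limma adjusted p = 0.0199; 1.13 in low-ratio and 1.24 in high-ratio arrays).

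Dusp6 ran the other way by class, with higher signals in low-ratio arrays. It stood at 365, 331, 219, 216.5 and 249 in untreated mice and at 655, 476.5, 387 and 409 in seized mice. The lowest seized mouse was above the highest untreated mouse. Dusp6 rose by log2 0.76 ± 0.14 (1.70-fold, limma adjusted p = 0.0199; 0.68 and 0.80 in the low-ratio and high-ratio arrays).

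Of the 4 genes, Ddit4 varied most among untreated mice, which stood at 195, 242, 424, 307 and 191. The seized mice were close together at 486, 439, 441 and 529. Untreated mouse 3 came near the seized mice, and the groups still did not overlap. Ddit4 rose by log2 0.88 ± 0.16 (1.84-fold, limma adjusted p = 0.0199; 1.09 in low-ratio and 0.73 in high-ratio arrays).

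**Figure D1:**
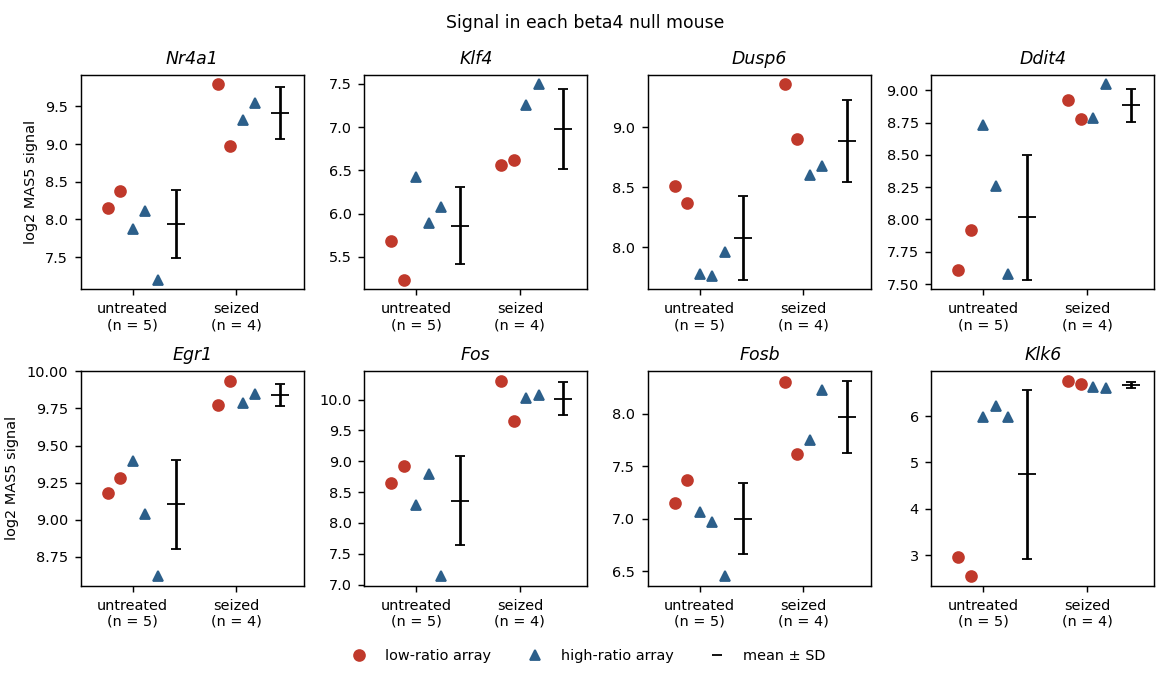
MAS5 signal on the log2 scale (y axis, a separate range per gene) of 8 genes in each of the 9 beta4 null mice, by group (x axis); circles are low-ratio arrays, triangles high-ratio arrays, and the bar gives the mean ± SD of the group. The 8 genes shown are ones whose groups did not overlap, with the seized mice higher. Of all 7350 probe sets, 31 (0.422%) were higher without overlap and 44 (0.599%) lower. For Klk6 untreated mice 1 and 2 (low-ratio arrays) stand far below the other 7 mice, at 7.85 and 5.86.

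These 4 calls rested on few mice. Without untreated mouse 5, seized mouse 1 or seized mouse 4 none of the probe sets passed (limma), and without untreated mouse 2 only Nr4a1 did. Without untreated mouse 4 (Ddit4 and Nr4a1) or seized mouse 2 (Dusp6 and Nr4a1) 2 passed. The sizes moved less: over these omissions Nr4a1 ran from 1.28 to 1.62, Klf4 from 1.13 to 1.31, Dusp6 from 0.67 to 0.83 and Ddit4 from 0.75 to 1.04. Over the 9 omissions Nr4a1 was called in 6, Klf4 and Ddit4 in 3 each and Dusp6 in 2. With no term for array class 1 probe set passed, Nr4a1. With the 9 beta4 null arrays alone in the fit 5 passed (limma). They were Nr4a1, Klf4, Dusp6 and Junb, which rose, and Chrne, which fell, while Ddit4 did not pass.

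Groups that do not overlap were counted over all probe sets as a description. In 31 probe sets (0.422%) every seized mouse was above every untreated one, and in 44 (0.599%) below. Median centring gave 37 and 26 and quantile normalization 33 and 38, so that the balance of higher and lower depends on the scaling. When the groups were compared inside each array class, 143 probe sets (1.95%) were higher in both classes and 182 (2.48%) lower in both.

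The immediate early transcription factors were mostly higher. Of 21 measured genes of this list, 2 rose (Nr4a1 and Klf4), 0 fell, and 16 had a difference above 0. Among all 5599 genes tested, 4 rose and 45.9% had a difference above 0. Without overlap between the groups, 7 of the 21 were higher and 0 lower, and 10 were higher inside both array classes. Of all 5599 genes, 27 were higher and 35 lower without overlap. Inside both classes 113 of the 5599 were higher and 138 lower. The list's median log2 difference was 0.35, with 0.33 in low-ratio and 0.48 in high-ratio arrays, and that of all genes was -0.02. With median centring or quantile normalization 16 of the 21 were again above 0, with medians of 0.40 and 0.37, against 58.6% and 49.2% of all genes above 0. By mouse, 16, 17, 15 and 16 of the 21 genes in seized mice 1 to 4 were above the untreated mean of the same class. Each untreated mouse was also set against the other untreated mice of its class. This gave 5, 16, 16, 14 and 5 of 21 (mice 1 to 5), so such a count is not particular to seized mice. Untreated mice 1 and 2 had only each other as reference, so their values mirror each other. The references of untreated mice hold fewer mice than those of seized mice. The median log2 difference over the 21 genes was 0.34, 0.23, 0.52 and 0.50 in the seized mice and -0.11, 0.11, 0.13, 0.13 and -0.18 in the untreated mice, on the same references. Untreated mouse 5 had the lowest signal of the 5 untreated mice in 11 of the 21 genes.

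Fos, the leading AP-1 subunit, had the largest difference of the list without passing the test. It stood at 402.5, 487, 314, 443 and 141 in untreated mice and at 1266, 803, 1045 and 1079 in seized mice, with no overlap. Untreated mouse 5 was far below the other untreated mice, and the low-ratio seized mouse 2 was the lowest of the seized mice. The log2 difference was 1.67 ± 0.37 (3.19-fold, limma adjusted p = 0.14).

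Fosb, another AP-1 subunit, stood at 142, 165, 134, 125 and 87.5 before and at 315, 196, 215 and 299.9 after seizure. Its log2 difference was 0.94 ± 0.23 (limma adjusted p = 0.31). Egr1, a zinc finger factor induced through ERK, stood at 581, 621, 674, 526 and 394 before and at 876, 979.8, 885 and 923 after seizure. The seized mice were closer together for Egr1 than for Fosb, and neither gene overlapped between groups. The log2 difference of Egr1 was 0.73 ± 0.15 (limma adjusted p = 0.081).

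The remaining early factors are given by their differences. Junb, a further AP-1 subunit, stood at 1.07 ± 0.31 (limma adjusted p = 0.71), and its dimmer probe set at 1.39. Seized mouse 1 had the highest Junb signal, 424, against 147 to 237.5 in the other seized mice and 81.5 to 152 in untreated mice. Ier2 stood at 0.99, Btg2, an antiproliferative co-regulator, at 0.82, Egr2 at 0.82, and Atf3, a stress-induced factor, at 0.82 (limma adjusted p between 0.74 and 1.00). Ier2 and Btg2 did not overlap between groups, while Egr2 and Atf3 did. Jun stood at 0.35, Cebpb at 0.32, Nr4a2 at 0.17, Klf6 at -0.20, Ier3 at -0.24 and Fosl2 at -0.43. Klf10, a Krüppel-like factor, stood at 0.01 ± 0.14, with overlapping groups, and its other probe set at 0.31.

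Kinase feedback genes followed a mixed pattern. Of 8 measured genes of the MAP kinase feedback list, 1 rose (Dusp6) and 0 fell, 5 of 8 (62.5%) had a difference above 0 and the median was 0.12. Over all 5599 genes 4 rose, 45.9% were above 0 and the median was -0.02. Dusp1, which dephosphorylates ERK, p38 and JNK, stood at 556.5, 676, 440, 524 and 274.5 before and at 1040, 803, 960 and 778 after seizure. The groups did not overlap, and the log2 difference was 0.94 ± 0.31 (1.91-fold, limma adjusted p = 1.00). Errfi1, an inhibitor of the EGF receptor, stood at 0.68 ± 0.17 (limma adjusted p = 0.32), higher in low-ratio arrays (1.02) than in high-ratio ones (0.39), and its other probe set stood at 0.27. Dusp2 and Dusp8 stood at 0.12, Spry4 at -0.10, Spred2 at -0.15 and Dusp16 at -0.31.

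Of 19 measured glucocorticoid-responsive genes, 1 rose (Ddit4) and 0 fell, with a median of -0.02 that became 0.03 with median centring. Of the 19, 9 (47.4%) were above 0, near the 45.9% of all genes tested, of which 4 of 5599 rose. Sgk1, a kinase that regulates ion transport, stood at 367, 355, 1320, 784 and 595 before and at 1000, 1223, 798 and 1245 after seizure. Its untreated low-ratio mice were lowest, and the groups overlapped through untreated mouse 3. The log2 difference was 0.83 ± 0.30 (limma adjusted p = 1.00; 1.61 in low-ratio and 0.23 in high-ratio arrays). Nfkbia, the inhibitor of NF-kB, stood at 0.80 ± 0.20 (limma adjusted p = 0.31) and its other probe set at 0.50. Per1, also a clock gene, stood at 0.49. Fkbp5, a co-chaperone of the receptor, stood at -0.50 and the receptor gene Nr3c1 at -0.97.

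Activity-regulated effectors held no called gene among 13 (0 risen, 0 fallen, median 0.13). Of the 13, 10 (76.9%) were above 0, and 11 (84.6%) with median centring, against 45.9% and 58.6% of all genes, of which 4 of 5599 rose. Ptgs2, the inducible prostaglandin synthase, was dim and scattered: 15.75, 19.2, 20.6, 13.6 and 7.61 before, and 77.6, 18.3, 15.9 and 50.8 after seizure. Seized mice 1 and 4 were high and seized mice 2 and 3 lay within the untreated range (log2 1.13 ± 0.47, limma adjusted p = 1.00). Plk2, a kinase that tunes synapses, stood at 0.45 ± 0.15, Gadd45g at 0.41, Rgs2, which restrains G protein signalling, at 0.30, and Bdnf, a neurotrophin, at 0.16. Of 17 circadian clock genes none passed (median -0.05, and 0.0001 with median centring). Nfil3, a repressor of clock output, stood at 0.67, and at -0.16 in its other, similarly bright probe set. Per2, a core repressor of the clock, stood at -0.72 ± 0.24 (limma adjusted p = 1.00). Per2 was below the untreated range in every seized mouse, at 41.1, 46.0, 32.8 and 60.0 against 64.9 to 100.2.

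**Figure D2:**
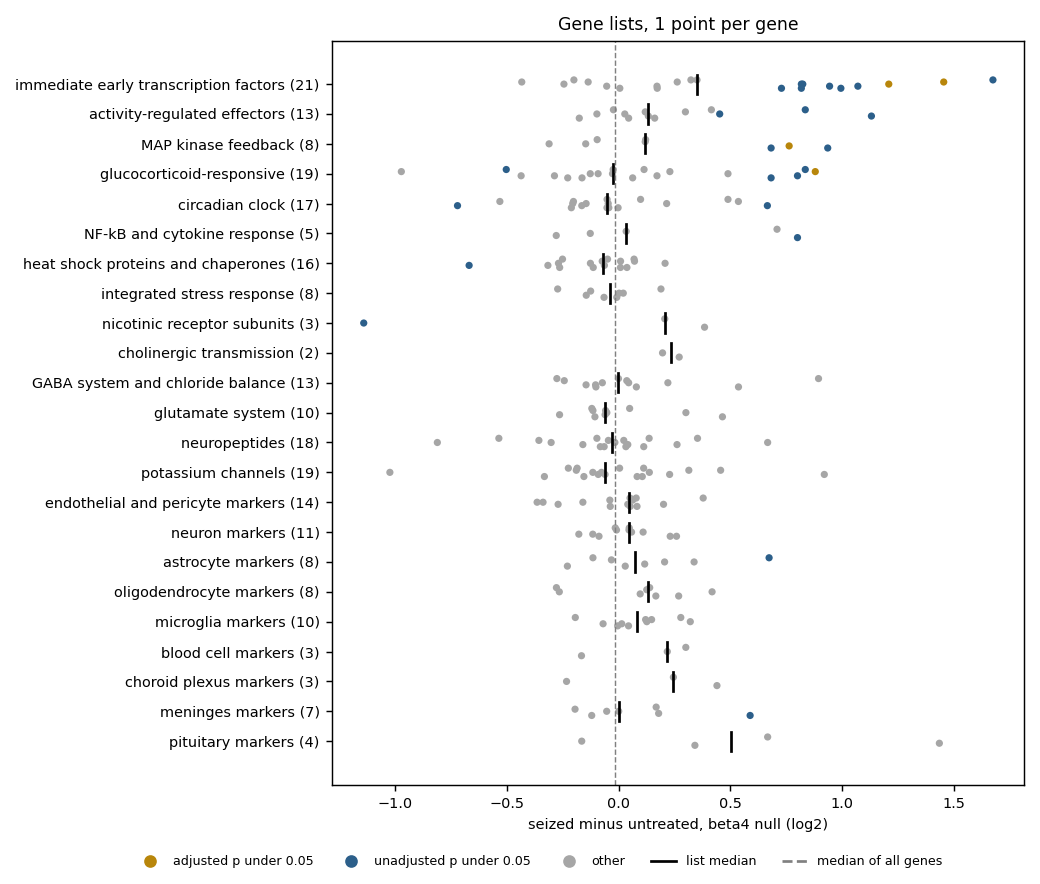
Log2 difference of seized minus untreated beta4 null mice (x axis) for each measured gene of 23 lists (y axis, number of genes in brackets); 1 point is 1 gene, black bars are list medians and the dashed line is the median of all genes tested. Of the 21 immediate early transcription factors, 10 lie above 0.7, while the medians of the neuropeptide, potassium channel, heat shock and glutamate lists lie between -0.07 and -0.03.

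No gene was called lower. The genes with the smallest unadjusted p on that side are given as values. Ciao1, a factor for cytosolic iron-sulfur protein assembly, stood at 354, 444, 259, 332 and 223 before and at 209, 219, 255 and 139 after seizure. The groups overlapped through seized mouse 3, and the log2 difference was -0.68 ± 0.17 (limma adjusted p = 0.31). Mthfd2, a mitochondrial enzyme of folate metabolism, stood at 197, 208, 298, 284 and 203 before and at 135, 115, 182 and 171 after seizure. Its groups did not overlap (-0.60 ± 0.15, limma adjusted p = 0.34). Without seized mouse 3 Ciao1 was called lower (limma).

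Sox18, a transcription factor of blood vessel cells, has 2 probe sets that differed. The dimmer one stood at 116.5, 115, 94.5, 88.1 and 109 before and at 64.8, 78.85, 66.4 and 66.05 after seizure, with no overlap (-0.60 ± 0.15, limma adjusted p = 0.32). The brighter one stood at -0.34 ± 0.18, with -0.79 in low-ratio and 0.03 in high-ratio arrays. Flt1, a receptor for VEGF, stood at -1.89 ± 0.60 in a dim probe set and at 0.05 in its brighter one. Rnf145, a ubiquitin ligase of lipid metabolism, stood at -0.57, Scrg1 at -0.51 and the kinase gene Zap70 at -0.89 (0.73 in its other probe set). Nxn stood at -1.58, Rspo2, an activator of Wnt signalling, at -0.88 and Zfp30 at -0.41 (limma adjusted p between 0.67 and 1.00 for these genes).

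The receptor lists were thinly measured. Of 16 nicotinic subunit genes 3 were tested. Chrna7, the alpha7 subunit, stood at 86.5, 82.15, 59.3, 42.6 and 36.15 before and at 83.8, 91.9, 67.0 and 78.8 after seizure, and the groups overlapped (0.38 ± 0.36, limma adjusted p = 1.00). Chrne, a subunit of the muscle receptor, stood at 201.5, 173, 131, 179 and 122 before and at 67.7, 107, 78.1 and 49.8 after seizure. It did not overlap between groups (-1.14 ± 0.35, limma adjusted p = 1.00), and with the 9 beta4 null arrays alone in the fit it was called lower. Chrng stood at 0.21 and its sign turned in the high-ratio arrays (-0.66). Neither muscle subunit is a known constituent of brain receptors.

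Lists of neurotransmission and stress genes had medians near that of all genes and no called member: 13 GABA and chloride genes (median -0.0006), 10 glutamate genes (-0.06), 19 potassium channels (-0.06), 18 neuropeptides (-0.03), 16 heat shock genes (-0.07) and 8 genes of the integrated stress response (-0.04). Among neuropeptides, Avp, vasopressin, stood at 430 and 331 in untreated mice 1 and 2, 151, 129 and 128 in untreated mice 3 to 5, and between 101 and 161 in the seized mice. Its difference was -1.89 in low-ratio and -0.02 in high-ratio arrays. Cck, cholecystokinin, stood at 0.35 and Vip at -0.54. Of the chaperones, Hspa1b stood at -0.67 and Hspa5, of the endoplasmic reticulum, at -0.27. Hmox1, haem oxygenase, stood at -0.26.

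Markers of cell types were examined over whole lists, since in bulk tissue fewer cells of a type and less RNA per cell cannot be told apart. Of the listed markers paired with a probe set, 11 of 11 of neurons, 8 of 9 of astrocytes and 8 of 9 of oligodendrocytes passed the filter on dim signals. None of the 11 neuron, 8 astrocyte, 8 oligodendrocyte, 10 microglia, 14 endothelial and pericyte, 3 blood, 3 choroid plexus, 7 meninges and 4 pituitary markers tested passed in either direction. Sums were taken on the linear scale, so the brightest members weigh most. Among the markers tested these were Snap25 for neurons (mean log2 12.47 in untreated mice) and Hba-a1 for blood (11.77). The summed signal of neuron markers was 11357 to 14285 in untreated and 11615 to 15461 in seized mice, and that of astrocyte markers 7005 to 8022 and 7460 to 8072. The ranges overlapped for each of the 9 marker lists. Inside the low-ratio class, with 2 mice a group, they did not for 6 lists: neuron, oligodendrocyte, endothelial, blood, choroid plexus and pituitary. Oligodendrocyte markers summed to 7363 to 7699 before and 8324 to 8789 after seizure there, blood markers to 2411 to 2498 and 4029 to 4546, and endothelial markers to 1802 to 1885 and 1649 to 1691. Inside the high-ratio class microglia markers summed to 1934 to 2226 before and 2332 to 2418 after seizure, and endothelial markers to 1452 to 1578 and 1598 to 1759. With so few mice in a class, sums of unchanged lists can separate, and how often they do was not tested. Endothelial markers went opposite ways in the classes. Whether these separations are shifts of cell types was not tested. The part of cell types in the differences of single genes was not tested. Dio2, the deiodinase of astrocytes, stood at 0.67 ± 0.23 (limma adjusted p = 1.00), and S100b, a calcium-binding protein of astrocytes, at 0.21 with no overlap between groups.

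The response was then compared between the array classes, each with untreated and seized mice of its own. No probe set differed between classes (0%, limma), and 166 (2.26%) had an unadjusted p under 0.05. In the high-ratio arrays alone none passed (0%, limma), and 140 (1.9%) had an unadjusted p under 0.05. Both shares are below the 0.05 expected where nothing differs. In the low-ratio arrays alone 5 rose (0.068%) and 1 fell (0.0136%), and none of them was among the 4 called over both classes. They were Klk6, Nfkbia, Tst, Hopx and Lxn, which rose, and the linker histone gene H1f2, which fell; Hopx, Lxn and H1f2 were named after their values were seen.

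Klk6, a secreted protease of oligodendrocytes, stood at 7.85 and 5.86 in untreated mice 1 and 2 and at 108.5 and 103 in seized mice 1 and 2. In high-ratio arrays it stood at 63.1, 74.9 and 62.8 before and at 99.2 and 96.8 after seizure. The seized mice were alike in both classes, and the untreated mice were not. Its log2 difference was 3.96 ± 0.45 in low-ratio and 0.55 ± 0.41 in high-ratio arrays (limma adjusted p = 3.3e-05 and 1.00), and the difference between these was 3.41 ± 0.61 (adjusted p = 0.064). The untreated low-ratio signals lie below the 25th percentile of all signals (11.58), where no level is known, so the size is uncertain. With signals floored there the low-ratio difference was 3.19 ± 0.44 (limma adjusted p = 0.0012), and the difference between classes was 2.64 ± 0.60 (adjusted p = 0.55).

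H1f2 stood at 722.5 and 727 in untreated mice 1 and 2 and at 219 in both seized low-ratio mice. In high-ratio arrays it ran from 148 to 209 in untreated mice and was 205 and 181 in seized mice. Hopx stood at 419 and 320 before and 725 and 718 after seizure in low-ratio arrays, and between 1037 and 1197 in all high-ratio mice. Lxn stood at 126 and 121 in untreated low-ratio mice and between 204 and 236 in the other 7 mice. Tst, a mitochondrial sulfurtransferase, stood at 90.5 and 104 in untreated low-ratio mice, 162.5 to 197 in the other untreated mice and 216 to 257 in seized mice. For these 4 genes and Klk6, untreated mice 1 and 2 stood outside the range of the 26 other arrays of the series. Nfkbia differed, with 238 and 168 in those mice, 169 to 278 in untreated high-ratio mice, and 521 and 504 in the low-ratio seized mice against 256 and 301 in the high-ratio ones.

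**Figure D3:**
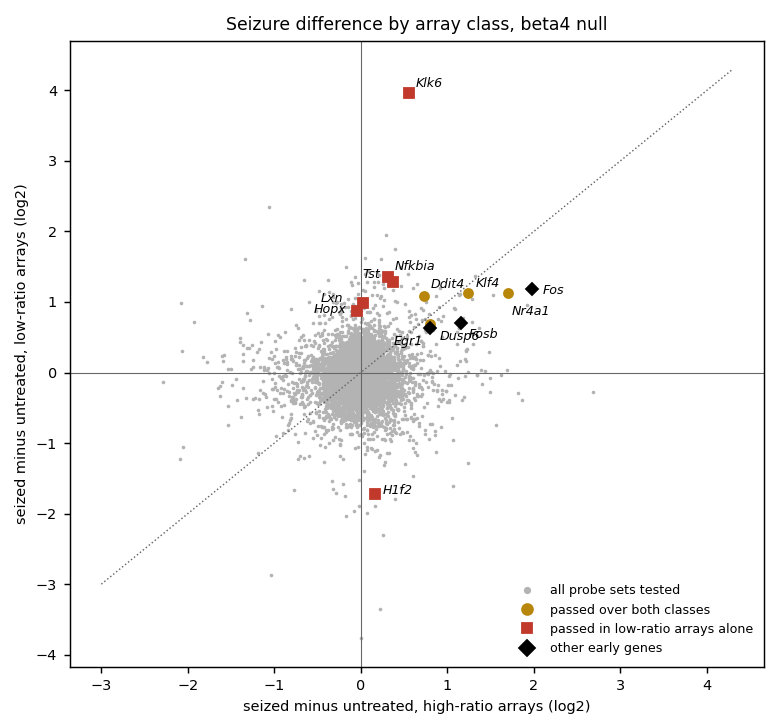
Log2 difference of seized minus untreated beta4 null mice in the high-ratio arrays (x axis) against the low-ratio arrays (y axis); each grey point is 1 of 7350 probe sets, coloured symbols are the genes that passed over both classes or in the low-ratio arrays alone, and the dotted line marks equal values. The 4 genes called over both classes lie between 0.68 and 1.70 on both axes, while Klk6 stands at 3.96 and 0.55 and H1f2 at -1.73 and 0.17.

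The beta4 null response was set against that of wild-type mice in the same fit. No probe set differed between the genotypes (0%, limma), and 403 (5.48%) had an unadjusted p under 0.05, near the share of 0.05 expected where nothing differs. A rise was called in wild-type mice for 5 probe sets (0.068%), and 2 of the 4 beta4 null genes were among them: Nr4a1 at 1.52 (limma adjusted p = 0.0061) and Dusp6 at 0.85 (adjusted p = 0.0061). Klf4 stood at 0.83 (adjusted p = 0.31) and Ddit4 at 0.52 (adjusted p = 0.41) in wild-type mice. The beta4 null minus wild-type difference was -0.07 for Nr4a1 (95% interval -0.82 to 0.68), 0.38 for Klf4 (-0.29 to 1.05), -0.09 for Dusp6 (-0.51 to 0.33) and 0.36 for Ddit4 (-0.13 to 0.85). The intervals of Nr4a1 and Klf4 are wider than 1 log2 unit, and that of Ddit4 reaches 0.85. For none of the 4 genes are the responses of the genotypes shown to be alike.

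The other 3 genes called in wild-type mice were Fosb, Atf3 and Wdr92. Fosb stood at 1.54 there and 0.94 in beta4 null mice (difference -0.60, interval -1.30 to 0.09). Atf3 stood at 1.69 and 0.82 (-0.87, interval -1.68 to -0.06). Wdr92, a WD repeat protein, stood at 1.02 and 0.42 (-0.60, interval -0.97 to -0.23). The difference did not pass for these genes when adjusted over all probe sets, and intervals are unadjusted. The list of early transcription factors had a median of 0.66 in wild-type mice. All 9 wild-type arrays were of the high-ratio class.

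Against alpha7 +/T mice 69 probe sets differed (0.939%; limma), 21 with a higher and 48 with a lower seizure difference in beta4 null mice. Klf10 led, at 0.01 in beta4 null and 1.28 in alpha7 +/T mice (difference -1.27, adjusted p = 0.0019), with 0.47 in wild-type mice. Its beta4 null signals were 193, 209, 150.5, 129 and 157 before and 137.5, 224, 189 and 135 after seizure. The seized mice covered the untreated range. The other Klf10 probe set had a difference of -0.86 (limma adjusted p = 0.037).

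Nfe2l2, the factor that controls antioxidant genes, stood at -0.43 in beta4 null and 0.68 in alpha7 +/T mice (-1.11, limma adjusted p = 0.023). Its signals were 138, 118, 139, 137 and 111 before and 98.5, 82.2, 92.1 and 103.5 after seizure, with no overlap. Lamp2, a lysosomal membrane protein, differed by -1.43, and its other probe set by -0.60 (limma adjusted p = 0.026 and 0.31). Lgalsl, a galectin-like protein, differed by -1.01, Cstf2, of the polyadenylation machinery, by -0.77 and Zfp644 by -0.68 (limma adjusted p = 0.026 for each). A rise was called in alpha7 +/T mice for 573 probe sets (7.8%), these 6 genes among them, and a fall for 405 (5.51%). In beta4 null mice none of the 6 passed.

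This count moved with the setting. With no term for array class it was 2, with age added 3, and among mice of 7 weeks or older 8, of which 0 were among the 69. There all 69 had the same sign, at a median 0.543 of their size. Only 1 untreated alpha7 +/T mouse was 7 weeks or older. Without untreated mouse 1 or seized mouse 4 of the beta4 null genotype the count was 2, and without untreated mouse 2 or 3 or seized mouse 1, 2 or 3 it was 10, 23, 43, 14 and 16.

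**Figure D4:**
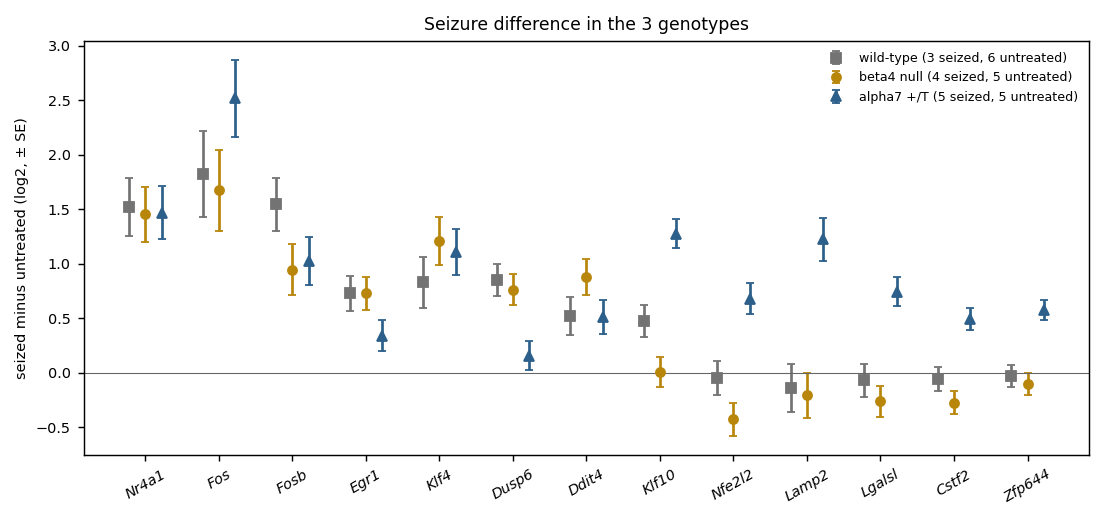
Log2 seizure difference (y axis, ± SE) of 13 genes (x axis) in wild-type (squares), beta4 null (circles) and alpha7 +/T mice (triangles), from 1 limma fit of all 28 arrays. Nr4a1 stands at 1.52, 1.45 and 1.47 in the 3 genotypes, whereas Klf10 stands at 0.47, 0.01 and 1.28.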

How the data were processed

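The authors deposited 1 signal intensity per probe set and array on a linear scale, made with MAS5 per the submitters' processing notes (version not given in the sources used here); the mean signal of each array with 2% trimmed at either end was 150.1, and values were used as deposited, as log2. The table holds 12488 probe sets, of which 66 controls were dropped. The platform annotation pairs 10833 of the others with 1 gene, 396 with several and does not list 1193; 10817 matched the RefSeq table by identifier. The 7350 probe sets (59.2%, 5599 genes) above the median of their array in at least 3 arrays were tested.

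A linear model (limma 3.58.1 under R 4.3.3, lmFit, then eBayes with a mean-variance trend) was fitted to all 28 arrays with 1 mean per group, 6 in all, and a term for array class, so that groups share 1 estimate of spread. P-values are two-sided and adjusted over the 7350 probe sets, with a threshold of 0.05. A second fit had 1 mean per group and class. Labels give each sample as 1 mouse. The fit was tested on simulated data.

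Named genes were those with the smallest p in the contrast (up to 12 each way, or 15 where called), a fixed set of early and receptor genes, up to 4 lowest-p members per described list and up to 6 that passed a test of a difference. Where a gene had more than 1 probe set, the brightest stands for it, or the one that passed. Klf4 and Dusp6 have 2 probe sets each and Chrne has 3, of which only 1 per gene passed the filter and was tested. The members, lists and rules were chosen with earlier results of these data known. Lists hold 1 probe set per gene and were not tested as sets. Alternatives covered array class, the mice in the fit, scaling, filter, low signals, variance model, sex, age and each of the 9 beta4 null mice left out.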

Additional observations from a re-analysis of the deposited data

Results flagged for a closer look

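Single mice stood far from the rest of their group in 7 of 138 groups of the named genes, by the gap to the nearest mouse relative to the group's range. Chance alone gives about 1 in 20 groups. Seized mouse 3 had 490.8 for Cstf2 and seized mouse 4 had 33.4 for Dusp16. Untreated mouse 3 had 1531.7 for Hspa5 and 100.2 for Per2. Untreated mouse 5 had 65.7 for Socs1, seized mouse 2 had 78.8 for the dimmer Sox18 probe set, and untreated mouse 1 had 693.8 for Wdr92.

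The seizure difference of beta4 null mice was tested against that of alpha7 +/T mice, and 69 probe sets differed (limma). The differences were -1.27 for Klf10, -1.43 for Lamp2, -1.11 for Nfe2l2, -1.01 for Lgalsl, -0.77 for Cstf2 and -0.68 for Zfp644. The other Lamp2 probe set stood at -0.60 and did not pass. Untreated alpha7 +/T mice were mostly 6 weeks old, and with age added 3 probe sets differed.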

How the results depend on the processing

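No paired analysis was possible because the labels give no replicate numbers, and numbers given in accession order pair no mice. The count of risen probe sets, 4, became 1 with no array class, 0 in the high-ratio arrays alone and 12 with array weights. Leaving out 1 of the 9 beta4 null mice gave 0 to 4. The count of fallen probe sets, 0, became 1 in the low-ratio arrays alone, 1 in the 9 beta4 null arrays alone and 4 with array weights, and 0 to 1 with a mouse left out. The count that differed between array classes, 0, became 2 in the 9 arrays alone, 1 in mice of 7 weeks or older, 7 with array weights and 1 with sex added, and 0 to 2 with a mouse left out, where a class can hold 1 seized or untreated mouse that is assumed to vary like the others. The difference from wild-type mice stayed at 0 in each setting run. The difference from alpha7 +/T mice, 69, became 2 with no array class, 272 with the Gapdh ratio in place of the class, 8 in mice of 7 weeks or older, 40 with no filter, 40 with eBayes without trend, 327 with array weights, 179 with sex added and 3 with age added, and 2 to 79 with a mouse left out.

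The cause of these changes was not tested. A floor at the 25th percentile in the low-ratio comparison, chosen after seeing the data, kept all 6 calls there, 5 risen and 1 fallen. Over 17 settings Nr4a1 was called in 15, Dusp6 in 14, Klf4 in 13 and Ddit4 in 12. Signs turned for values near 0 or scattered between classes. Klf10 became -0.19 in low-ratio arrays, -0.013 in the 9 arrays alone and -0.0056 with age added, and -0.12 to 0.13 with a mouse left out. In low-ratio arrays Relb became -0.030 and Socs1 0.14. In high-ratio arrays Chrng became -0.66, Kdr 0.10, Sox10 0.13 and the brighter Sox18 probe set 0.031. With a mouse left out Chrng ran from -0.089 to 0.65 and Socs1 from -0.56 to 0.052. The number of arrays and signals without a background value limit what can be called.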

Other observations

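Untreated beta4 null mice 1 and 2 stood apart from the rest of the series in a set of genes, chosen after their values were seen. In 75 of 7350 probe sets (1.02%) both were below all 26 other arrays, and in 82 (1.116%) both were above them. Other pairs of low-ratio arrays were not counted in this way, so these counts are not shown to be unusual. By more than log2 1 this held for Klk6 below (7.85 and 5.86, against 33.1 to 118 elsewhere) and H1f2 above (722.5 and 727, against 100.1 to 317.5), and in the other 7 low-ratio arrays these genes ranged from 76.5 to 108.5 and from 195 to 271. Below were also Dio2 (98.8 and 110, against 188 to 701, and 188 to 325 in the 7 other low-ratio arrays), Hopx, Lxn, the mitochondrial subunit gene Cox6a2 (85.3 and 99.5, against 134 to 359, and 134 to 227 in those 7) and Nrep. The neuronal tubulin Tubb3 was below in a dimmer probe set, and its brightest probe set did not stand apart in this way. For Dio2, Hopx, Lxn, Cox6a2 and Nrep the nearest value lay in the low-ratio class. Above, the nearest values were closer, and for Sparc, Gjb6 and Gpx3 they also lay in that class. Sparc, a matrix protein, stood at 748 and 724.5 against 368 to 589 in the other 7 low-ratio arrays (216 to 589 in all 26). The astrocyte connexin Gjb6 stood at 409 and 422 against 208.5 to 333 there (92.2 to 333 in all). The peroxidase Gpx3 stood at 281 and 298 against 188 to 236 (77.4 to 236 in all), and the lipid carrier Apod at 1711 and 2067 against 832 to 1358 (681 to 1447 in all). These mice are the whole untreated side of the low-ratio comparison, and were 6 and 9 weeks old.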
